A study of Mus musculus with 6 samples.

Results

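The cells described here are mouse pre-B cells driven by BCR-ABL1, the constantly active kinase that the Philadelphia chromosome encodes in a form of acute lymphoblastic leukaemia, and transduced with the empty retroviral vector pMIG. They came from C57Bl6 mice aged 4 weeks, carry the genotype label wild-type, and were sorted for GFP, the vector's fluorescent marker, 3 days after transduction. Of the 6 Affymetrix arrays of total RNA in the study, the 3 titled as empty vector were used, and no contrast with the other 3 arrays, whose cells received IKZF1, was made. Whether these arrays stand for separate cultures, separate mice or repeats of the same cells is not in the labels, so their spread may be technical. They also do not give the purity of the sort, the construct that carried BCR-ABL1 or whether the cells are clonal.

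Each array reports 35421 probe sets. Those that pair with exactly 1 gene symbol were kept, and each gene was represented by its probe set of highest mean level in these 3 arrays, which left 19936 genes. Levels are log2(intensity + 1) and are given in the order empty vector 1, 2 and 3. A level depends on the probes as well as on the transcript, so ranks and percentiles order signals and not amounts of RNA. With 1 group there is no test and no p-value, and a mean ± SD (n = 3 arrays) describes these arrays.

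A pre-B cell has rearranged its immunoglobulin heavy chain and displays it with the surrogate light chain, made of VpreB and lambda5 proteins, in a pre-B cell receptor. The receptor signals through CD79A and CD79B to the kinases SYK and BTK and the adaptor BLNK. Cells leave the cycle, re-express the RAG recombinase and rearrange the light chain as they pass from the large cycling to the small resting stage. BCR-ABL1 signals constantly through STAT5, RAS and PI3 kinase and can stand in for cytokine signals in such cells.

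Before the values, the sequences upstream of the pre-B cell receptor genes are shown, since 4 of the 6 genes of the receptor were among the 100 brightest, and the windows at hand hold few CpG pairs, unlike those of most genes above background. Those 4 bright genes were Igll1, Vpreb3, Cd79a and Cd79b. The windows shown are not the same set, since they include the dimmer Vpreb1 and lack Cd79b. The sequences of Cd79b, Vpreb2 and Ikzf3 are not shown. Each window runs from 250 bases before to 50 after the start, 300 bases in all, 5′ to 3′ on the gene's strand, from RefSeq on GRCm38.p6. Capitals mark the letters CAGGTG on either strand, an E-box of the type that E2A proteins bind. The windows are chr16:16863936-16864235, minus strand, for Igll1, chr16:16869206-16869505, minus strand, for Vpreb1, chr10:75948050-75948349, plus strand, for Vpreb3 and chr7:24897247-24897546, plus strand, for Cd79a.
Igll1: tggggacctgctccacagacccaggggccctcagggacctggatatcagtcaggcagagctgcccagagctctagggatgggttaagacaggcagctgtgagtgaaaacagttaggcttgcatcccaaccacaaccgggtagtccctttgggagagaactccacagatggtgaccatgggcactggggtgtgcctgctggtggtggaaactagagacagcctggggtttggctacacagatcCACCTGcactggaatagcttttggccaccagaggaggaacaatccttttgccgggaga
Vpreb1: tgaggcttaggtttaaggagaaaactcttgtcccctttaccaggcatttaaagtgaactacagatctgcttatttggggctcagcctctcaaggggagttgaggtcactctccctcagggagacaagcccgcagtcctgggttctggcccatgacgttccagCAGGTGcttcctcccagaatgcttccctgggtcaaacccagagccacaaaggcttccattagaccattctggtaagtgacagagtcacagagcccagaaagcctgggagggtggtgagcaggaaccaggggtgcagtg
Vpreb3: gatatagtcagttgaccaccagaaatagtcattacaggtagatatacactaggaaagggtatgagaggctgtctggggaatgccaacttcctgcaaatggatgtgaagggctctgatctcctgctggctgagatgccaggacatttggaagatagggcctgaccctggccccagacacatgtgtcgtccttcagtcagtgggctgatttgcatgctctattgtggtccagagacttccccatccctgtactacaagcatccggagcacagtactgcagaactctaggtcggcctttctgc
Cd79a: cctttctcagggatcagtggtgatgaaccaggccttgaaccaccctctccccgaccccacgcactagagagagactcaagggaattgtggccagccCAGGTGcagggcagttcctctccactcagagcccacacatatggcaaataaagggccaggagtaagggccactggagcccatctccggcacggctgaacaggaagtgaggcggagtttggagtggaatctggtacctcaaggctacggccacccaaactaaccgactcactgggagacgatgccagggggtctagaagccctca
Igll1 and Vpreb1 lie next to each other on chromosome 16. CAGGTG began at base 243 of the Igll1 window, base 163 of that of Vpreb1 and base 97 of that of Cd79a, and the Vpreb3 window did not hold it. CAGGTG occurred in 19.2% of the 15614 windows of genes on the array, and no site is claimed from a match. The 4 windows held 2, 2, 3 and 8 CpG pairs, against a median of 15 over all windows.

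Empty vector 3 stood apart from the other arrays. Across the 13124 genes above background on at least 1 array, arrays 1 and 2 correlated with r = 0.994, arrays 1 and 3 with r = 0.978 and arrays 2 and 3 with r = 0.961; genes are not independent replicates, and these values describe the arrays only. The SD of the log2 difference was 0.21, 0.41 and 0.54 for the same pairs. Array medians were close, at intensities of 101, 102 and 100.2. Counts of genes above the background limit described below, and of genes that vary between arrays, are given with and without array 3. Counts above the stricter limit described there are given for all 3 arrays only.

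Background was read from 1205 olfactory, vomeronasal and trace amine receptor genes, which sensory neurons express and blood cells are not known to use widely. Their median level was 4.80, against 6.95 over all genes. The 95th percentile of these genes was 6.10, 6.13 and 6.09 on the 3 arrays and served as the background limit. The receptor genes are counted among all genes, and most of them lie within background by the choice of limit. A total of 12281 genes lay above it on all 3 arrays (61.6%), 6812 lay at or below it on all 3 (34.2%), and 843 lay above it on some (4.23%). A stricter limit, the 95th percentile of 192 keratin, late cornified envelope, beta-defensin and taste receptor genes, was 7.43, 7.67 and 7.50, and 8432 genes exceeded it (42.3%). On arrays 1 and 2 alone, 12501 genes exceeded the first limit (62.7%). Signals a little over the first limit can still be background, so list counts are given against both limits where they differ. Each list count is to be read beside these shares over all genes, 61.6% for the first limit and 42.3% for the stricter one.

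**Figure D1:**
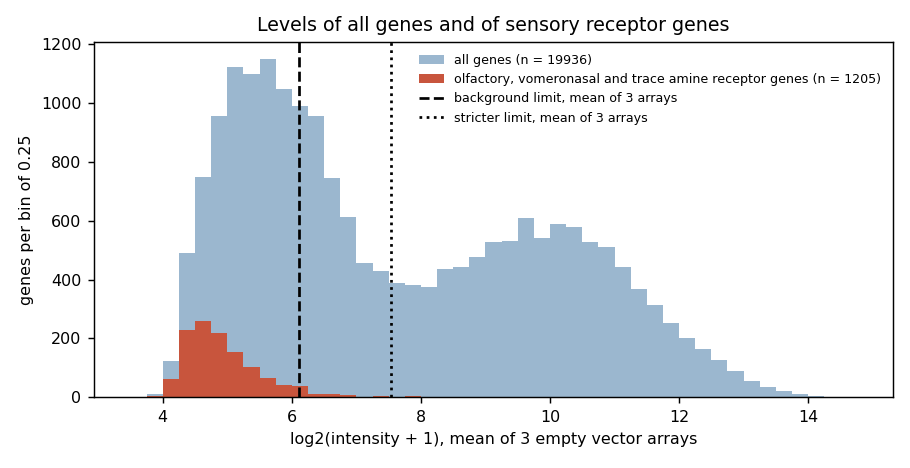
Number of genes per bin of 0.25 in log2(intensity + 1), mean of the 3 empty vector arrays, for all 19936 genes (blue) and for 1205 sensory receptor genes (red); the dashed and dotted lines are the background and stricter limits, each the mean of 3 arrays. All genes form 2 humps with a low near 8, and the receptor genes lie almost wholly in the dimmer hump.

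Beyond the markers and the brightest genes, the genes named below were drawn from the members of short or central lists and the brightest and dimmest members of longer ones; members between these were chosen after their values were seen. Lists overlap in some genes. Entries with no probe set of 1 symbol, among them Lyn, Gapdh, Eno1, Trp53 and Bax, were not analysed here.

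Genes of protein synthesis made up a large part of the brightest signals. Eef1a1, which carries aminoacyl-tRNA to the ribosome, was the brightest gene at 14.33, 14.38 and 14.33. Next in order came Baiap2l1, the small nuclear RNA gene Rn7sk, the histone gene H4c4, the actin gene Actb, Serinc3, and at rank 7 Ldha, the lactate dehydrogenase subunit that favours making lactate. Ly6e, Rpl10, the thioredoxin gene Txn1 and the chaperone gene Hspa8 followed, and Igll1 had rank 12. Eef2, the tubulin gene Tubb5, Pabpc1, Rplp1, Rps6, Rpl19, Rhoa, Rps20, Rpl21, Rps15, Rpl28, Tpt1 and Rbm3 filled the ranks to 25, where the level was 13.63. None of these 25 genes differed by more than 0.23 between its lowest and highest array, so the top of the order did not depend on array 3.

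Of the 100 brightest genes, all at 13.15 or above, 18 were among the 54 ribosomal protein genes, 7 among the 28 translation genes and 4 among the 6 pre-B cell receptor genes. A further 3 came from each of the amino acid transporter and oxidative phosphorylation lists. In all, 44 of the 100 stood in any list. These 100 genes held 7.8% of the summed intensity of all genes. Baiap2l1, which encodes an adaptor of the cell cortex, is uncertain: its 3 probe sets read 14.25, 11.84 and 5.34, and only the dimmest lists the gene's coding transcript. H4c4 has near-identical copies in other histone H4 genes, and many ribosomal protein genes have processed copies, so their probe sets can share signal.

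All 6 pre-B cell receptor genes lay above both limits on every array, with a median level of 13.33 and a median percentile of 99.7 among all genes. Igll1, which encodes lambda5, read 13.85, 13.80 and 13.97, or 13.88 ± 0.09 (SD, n = 3). It was slightly higher on array 3. Vpreb3, a chaperone-like partner of the receptor chains, read 13.51, 13.54 and 13.30. The signalling subunits were as even, with Cd79a at 13.33, 13.29 and 13.32 and Cd79b at 13.37, 13.41 and 13.26. Vpreb1 and Vpreb2, the other surrogate light chain genes, were dimmer, at 11.12, 11.01 and 11.12 and at 10.34, 10.46 and 10.19. The last marker of the set, Ikzf3, which encodes the Ikaros family factor Aiolos, read 12.14, 12.21 and 12.13. All 6 marker genes of the label were thus above background, at or over percentile 90.4.

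Ighm, the gene of the mu heavy chain, was looked at after the other values were seen and was far less bright. It read 7.71, 6.50 and 8.74, highest on array 3 and lowest on array 2. Its 3 probe sets fell on both sides of the limit, so this level is uncertain.

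Of the 21 measured genes of signalling below the receptor, 19 lay above the limit and 18 above the stricter one, and none was at background on all 3 arrays. The brightest were Inpp5d (12.46 ± 0.05), which encodes the inhibitory phosphatase SHIP1, Prkcb (12.30 ± 0.04), Blnk (12.20 ± 0.13) and Pik3cd (12.17 ± 0.03), the lymphoid PI3 kinase subunit. Syk read 11.67, 11.66 and 11.69 and Btk 11.13, 11.12 and 11.02, without separation between arrays. The dim end of the list varied more. Cd22, an inhibitory co-receptor, read 8.27, 9.19 and 7.57, and Vav3, an exchange factor, 8.16, 8.39 and 5.97. Both were lowest on array 3, where Vav3 was within background. Cr2, a complement receptor of later B cells, read 7.11, 6.33 and 7.67. Zap70, the relative of Syk used in T cells, stayed near the limit at 6.18, 6.33 and 5.92.

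The transcription factors that set B cell identity were bright. Of 28 measured, 27 lay above both limits, with a median level of 11.54. Pou2af1, a B cell co-activator, read 12.79, 12.80 and 12.82, and Ebf1, a factor that specifies the lineage, 12.76, 12.72 and 12.76. Both were the same on all arrays to within 0.05. Pax5, which commits cells to the lineage, read 12.09, 12.02 and 12.30, and Tcf3, the gene of E2A, 12.04, 12.02 and 12.04. Myb (12.48 ± 0.08), Spib (12.33 ± 0.07), Bcl11a (12.11 ± 0.25) and Runx1 (11.89 ± 0.05) completed the upper group.

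Ikzf1, the gene of Ikaros, was itself bright in these empty vector cells, at 11.85, 11.78 and 11.98. Ikzf2, its Helios relative, was at the limit, at 6.10, 6.03 and 5.99. The factors that accompany the step from large to small pre-B cell, Irf4 and Foxo1, read 11.32, 11.20 and 11.85 and 11.73, 11.43 and 12.13. They were highest on array 3 and lowest on array 2. Irf8, in contrast, read 12.05, 12.13 and 11.19 and was lowest on array 3. The remaining members lay below these: Lef1, Tcf12, Erg, Mef2c, Bach2, Spi1, Tcf4, Ets1 and Zeb2 had means from 10.30 to 11.59, and Id2, Id3, Klf2, Klf3 and Pou2f2 from 7.92 to 9.57. Klf2, which restrains pre-B cell growth, read 9.59 on array 2 and 8.39 on array 3, with array 1 between them. Klf3 read 8.39, 7.76 and 9.21, the opposite order.

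The genes that cut and join immunoglobulin segments split into a steady and an uneven group. Rag1, a subunit of the recombinase, read 7.93, 6.52 and 9.70. Rag2, the other subunit, read 6.91, 5.53 and 8.95 and was within background on array 2. Dntt, the terminal transferase that adds bases at joints, read 8.63, 7.66 and 9.39. All 3 were lowest on array 2, intermediate on array 1 and highest on array 3, with ranges of 3.18, 3.42 and 1.73. In all, 5.48% of genes above the limit on at least 1 array had a range of 1 or more.

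The 9 general repair and chromatin genes of the same list were steadier: the DNA bending genes Hmgb2 (11.71 ± 0.33) and Hmgb1 (10.23 ± 0.39), the Ku genes Xrcc5 (10.53 ± 0.11) and Xrcc6 (9.61 ± 0.25), the ligase gene Lig4 (9.77 ± 0.39), Atm (9.57 ± 0.16), Prkdc (8.83 ± 0.11), Xrcc4 (8.60 ± 0.21) and Nhej1 (8.05 ± 0.13). Of the 12 genes in all, 11 lay above the limit and 9 above the stricter one.

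Stem and early progenitor genes were mostly silent. Of 14 measured, 8 were within background on all 3 arrays (34.2% of all genes). The remaining 6 lay above the limit (42.9%, against 61.6% of all genes), and 3 exceeded the stricter limit (42.3% of all genes). Kit, the stem cell factor receptor that pro-B cells carry, read 5.71, 5.83 and 5.70, and Cd34 read 5.57, 5.73 and 5.59. Neither lay above the limit on any array. Hoxa9, Meis1, Procr, Hlf, Mecom and Slamf1 were within background as well, with means from 5.30 to 5.82. Flt3, a receptor of early lymphoid progenitors, was low but above the limit, at 7.85, 8.13 and 7.17. Lmo2 read 8.99, 9.62 and 7.99, Sox4 10.20, 10.15 and 10.71, and Tal1 and Gata2 had means of 7.15 and 6.53. Cd93, which early B cells share with progenitors, was bright at 12.63, 12.66 and 12.14.

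Most surface genes of pro-B and pre-B cells were bright. Of 15 measured, all but Kit, that is 14, lay above both limits (61.6% and 42.3% of all genes), at a median level of 11.90. Cd24a, the heat stable antigen, read 13.19, 13.07 and 13.42. Bst1, the stromal antigen BP-3, read 12.71, 12.73 and 12.57, and Enpep, the BP-1 antigen of large pre-B cells, 12.31, 12.41 and 11.94. Il7r, the receptor of the growth factor of pro-B and pre-B cells, read 12.17, 11.93 and 12.63 and was highest on array 3. Cd2 (12.06 ± 0.27), which appears at the pre-B stage in mice, was bright, and Spn, the CD43 gene of pro-B and large pre-B cells, was lower, at 9.45, 9.57 and 9.10.

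Il2ra, the gene of CD25 and a marker of pre-B cells past the pro-B stage, was uneven. It read 11.81, 12.15 and 8.88, bright on arrays 1 and 2 and lower on array 3 by a range of 3.28. Its mean was 10.95 ± 1.80 over 3 arrays and 11.98 over arrays 1 and 2. Ly6d read 10.79, 11.02 and 9.78 and showed the same order. Crlf2 and Il3ra, cytokine receptor chains, were less bright, at 9.21 ± 0.11 and 8.74 ± 0.05 (percentiles 69.6 and 64.9).

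Of 21 genes of mature B cells, 14 lay above the limit (66.7%, against 61.6% of all genes), 8 above the stricter one (42.3% of all genes) and 6 within background. Ms4a1, the CD20 gene, was within background at 5.34, 5.25 and 5.43. Fcer2a, the CD23 gene, was too, at 4.93, 5.04 and 5.18, as were Ccr6, Cd86, the class II activator gene Ciita and the class II gene H2-Aa, with means from 4.89 to 5.81. The other class II genes were low but above the limit, H2-Ab1 at 7.83, 7.87 and 7.02 and H2-Eb1 at 7.35, 7.73 and 6.85. Cd69 (11.83 ± 0.15), the inhibitory Fc receptor gene Fcgr2b (11.62 ± 0.30), the BAFF receptor gene Tnfrsf13c (11.13 ± 0.20) and the chemokine receptor gene Ccr7 (11.11 ± 0.25) led the list.

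Cxcr5, the receptor that guides B cells to follicles, read 9.53, 10.11 and 6.01 and was within background on array 3 only. Fcrla read 10.94, 11.20 and 9.48, again lowest on array 3. S1pr1, the receptor for exit into blood, ran the other way at 9.49, 8.49 and 10.25. On arrays 1 and 2 alone, 15 of the 21 genes lay above the limit, the added gene being Cxcr5.

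Of 8 plasma cell genes, 4 lay above the limit (50%, against 61.6% of all genes) and 3 above the stricter one (42.3% of all genes). Xbp1, a secretory pathway regulator, read 12.57, 12.68 and 11.52, and Ell2, an elongation factor, 11.35, 11.10 and 11.80. Jchain, the joining chain of secreted antibody, read 9.20, 9.56 and 6.90 and was lowest on array 3. Sdc1, the CD138 gene, read 8.25, 7.91 and 8.96. Prdm1, the gene of the plasma cell regulator BLIMP1, was near the limit at 6.06, 5.74 and 6.67, and Fkbp11, Tnfrsf17 and Cd28 were within background.

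Markers of other cell types were mostly at background. Over 8 lists of T cell, NK cell, myeloid, erythroid, megakaryocyte, mast cell, stromal and endothelial genes, 32 of 100 measured entries lay above the limit and 3 above the stricter one, while 56 were within background. Over all genes these shares were 61.6%, 42.3% and 34.2%, which also serve as the background of each list below. In RNA from a mass of cells, fewer cells of a type and less RNA per cell cannot be told apart. The 3 above the stricter limit on all 3 arrays were the cytokine receptor gene Csf2ra (9.89 ± 0.16) and the adhesion and co-receptor genes Pecam1 (10.35 ± 0.21) and Eng (11.01 ± 0.29). The other endothelial genes stayed low beside them: Kdr, Emcn, Tek, Robo4, Cdh5, Esam and Tie1 had means from 5.18 to 6.15. The T cell gene Lat, at 10.08, 10.37 and 7.34, exceeded the stricter limit on arrays 1 and 2 and missed it on array 3. So did the myeloid genes Cd33 and Fcgr3, by less.

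Of 16 T cell genes, 7 lay above the limit (61.6% of all genes) and 0 above the stricter one on all 3 arrays (42.3% of all genes). Cd3d, Cd3g, Themis and Cd28 had means from 4.88 to 5.22. Cd6, Cd247, Ptcra, Bcl11b, Cd3e and Cd5 lay above the first limit, with means from 6.18 to 7.35. Lat, an adaptor of T cell receptor signalling that pre-B cells can also use, was the brightest at 10.08, 10.37 and 7.34. It was lowest on array 3, and the summed intensity of the 16 T cell genes was 2127, 2416 and 1207 with it. Of 10 NK cell genes only Prf1 lay above the limit (6.82 ± 0.08), and Eomes, Nkg7, Gzmb, Fasl, Klrd1, Ncr1, Gzma, Klrb1c and Klre1 had means from 4.36 to 5.34. Myeloid genes counted 9 of 26 above the limit and 1 above the stricter one. Below Csf2ra the brightest were Cd33, at 7.61, 7.86 and 7.18, and the Fc receptor gene Fcgr3, at 7.45, 7.79 and 7.19. Camp, Prtn3, Mrc1, Cebpa, Cebpb and Cebpe also lay above the limit, with means from 6.48 to 6.75. The neutrophil and macrophage genes S100a8, Adgre1, Ltf and Ctsg were dimmest, with means from 4.95 to 5.42.

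Megakaryocyte genes counted 5 of 7 above the limit (71.4%, against 61.6% of all genes) and 0 above the stricter one on all 3 arrays. Itgb3, the brightest, read 7.26, 7.75 and 6.39, Itga2b, Vwf, Gp9 and Gp5 had means from 6.18 to 6.75, and the platelet factors Ppbp and Pf4 read 5.10 and 4.51. Erythroid genes counted 2 of 9, Epor at 6.38 ± 0.08 and Slc4a1 at 6.28 ± 0.06. Ermap, Klf1, Gata1, Rhd, Alas2, Epb42 and Rhag had means from 4.56 to 6.16, and the globin genes were not analysed here. Mast cell and basophil genes counted 2 of 10, Hdc at 6.87 ± 0.10 and Tpsb2 at 6.52 ± 0.02. Prss34, Tpsab1, Cma1, Mcpt4, Mcpt8, Ms4a2, Cpa3 and Fcer1a had means from 4.66 to 6.19. Stromal genes counted 4 of 13, the collagen genes Col1a1 (7.31 ± 0.15), Col1a2 and Col3a1 and the actin gene Acta2 (6.34 ± 0.02), while Dcn, Postn, Lepr and Lum had means from 4.54 to 5.09. Xist, the RNA of the inactive X chromosome, read 12.50, 12.54 and 12.53, while Kdm5d, Usp9y, Zfy1, Uty, Eif2s3y and Zfy2, all Y-linked, were within background and Sry read 7.51 ± 0.05.

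**Figure D2:**
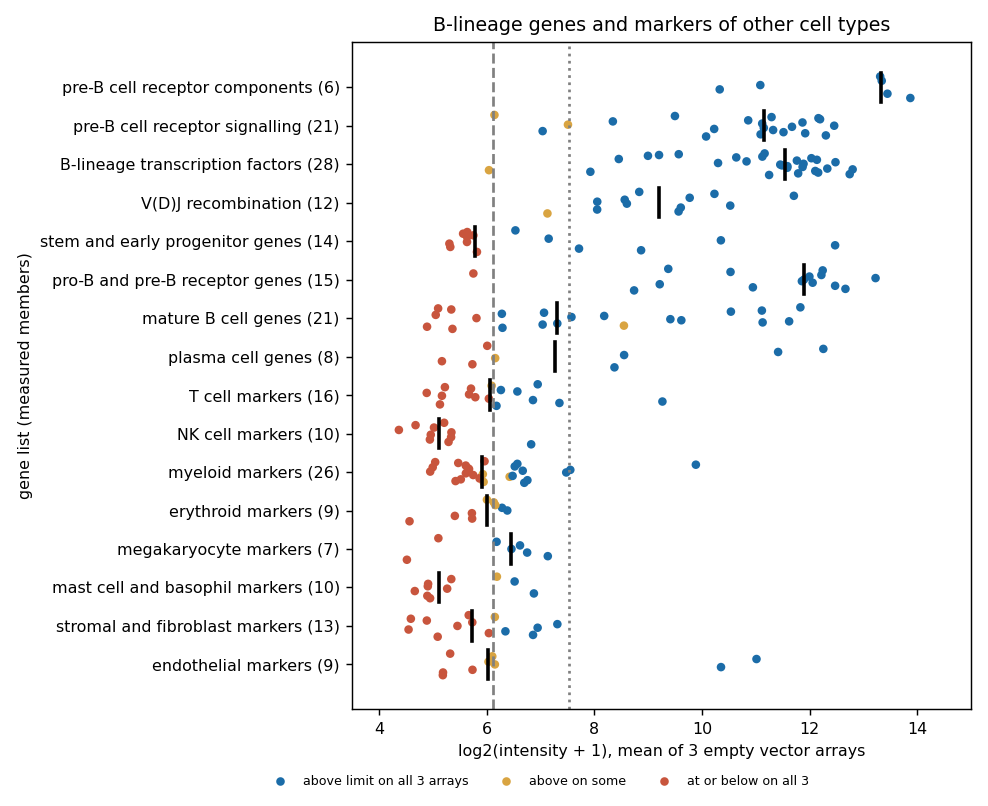
Level of each measured gene in 16 lists, log2(intensity + 1), mean of the 3 empty vector arrays; points are genes coloured by their place against the background limit, bars are list medians, and the dashed and dotted lines are the background and stricter limits. Lists of pre-B cell receptor, signalling, B-lineage factor and pre-B surface genes lie at medians of 11.15 to 13.33, and lists of other cell types at medians of 5.10 to 6.46.

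In several glycolytic families 1 isoform gene was bright and others were dimmer, some of them at or near background. Glucose enters through SLC2A transporters, is phosphorylated by hexokinase, and ends as pyruvate, which lactate dehydrogenase turns into lactate. Slc2a1, the general glucose transporter, read 11.67, 11.46 and 11.21, while Slc2a3 stood at the limit (6.17 ± 0.11) and Slc2a2 and Slc2a4, of liver and muscle, were within background. Of 12 transporters, 6 lay above the limit (50%, against 61.6% of all genes) and 3 above the stricter one (42.3% of all genes). Beside Slc2a1, the other 2 above the stricter limit were Slc2a9 (9.52 ± 0.24) and Slc2a6, at 9.48, 9.87 and 7.98. Slc2a8 and Slc5a2 read 7.45 ± 0.08 and 6.86 ± 0.07, and Slc2a12, Slc5a1, Slc2a5 and Slc2a10 were within background. Hk1 read 13.37, 13.41 and 13.44 (percentile 99.7) with the brighter of its 2 probe sets and 11.45 with their mean. Hk2 read 8.82, 8.52 and 8.88, and Hk3 and Hkdc1 were within background on all 3 arrays.

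At the next steps 6 of 7 genes lay above the limit and 4 above the stricter one. Aldoa, the general aldolase, read 13.04, 13.34 and 12.70. Pfkp (10.60 ± 0.46) and Pfkl (10.53 ± 0.23) were the brighter phosphofructokinase genes, and Pfkm was lower (8.98 ± 0.12). Aldoc, the aldolase best known from brain, read 11.30, 12.25 and 7.29, so that its signal was close to that of the bright genes on arrays 1 and 2 and little above background on array 3. Fbp1 and Fbp2, which run the reverse step, read 6.47 ± 0.28 and 6.01 ± 0.02. The regulators of phosphofructokinase, Pfkfb3 (9.76 ± 0.08), Tigar (8.49 ± 0.04), Pfkfb2 (8.33 ± 0.12) and Pfkfb4 (8.07 ± 0.61), all lay above the limit and 3 of the 4 above the stricter one.

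In the lower pathway Pgk1 read 12.98, 13.23 and 12.84, Tpi1 12.76, 12.92 and 12.49, Pgam1 12.63, 12.74 and 12.41 and Pkm 12.41, 12.65 and 12.18. Each was brightest on array 2 and dimmest on array 3. Ldha, with the smallest range of the 25 brightest genes, read 13.96, 13.95 and 13.95. The partner subunit gene Ldhb, which favours the reverse reaction, was within background at 5.84, 5.61 and 5.86, as were Pgk2 and Ldhc, both of the testis. Slc16a1, an exporter and importer of lactate, read 12.16, 11.93 and 12.47, whereas Slc16a3 read 7.27 ± 0.04 and Slc16a7 was within background. Of the 16 genes of this list, 10 lay above the limit (62.5%, against 61.6% of all genes), 7 above the stricter one and 5 within background. Neither list of upper or lower glycolysis holds Gapdh or Eno1, which have no probe set of 1 symbol.

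**Figure D3:**
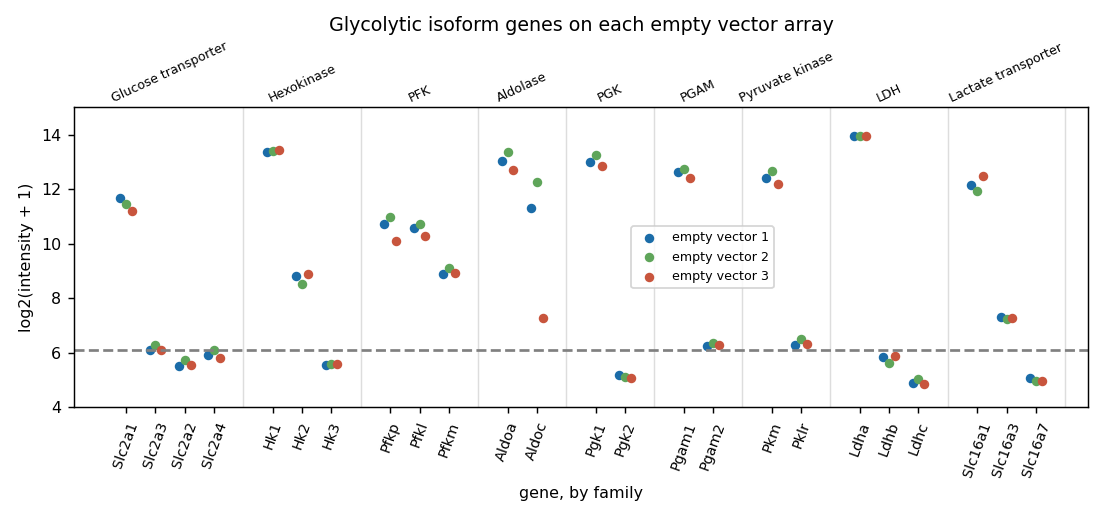
Level of glycolytic isoform genes on each empty vector array, log2(intensity + 1), grouped by enzyme or transporter family; each point is an array and the dashed line is the background limit. Slc2a1, Hk1, Aldoa, Pgk1, Pgam1, Pkm, Ldha and Slc16a1 lie at 11.21 or above on every array, while Hk3, Pgk2, Ldhb, Ldhc and Slc16a7 lie below the limit. Hk1 is shown with the brighter of its 2 probe sets.

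Genes of the mitochondrion were mostly bright and even. Of 30 genes of pyruvate entry and the citrate cycle, 28 lay above the limit and 27 above the stricter one (median level 11.10). Of 51 subunits of oxidative phosphorylation, 49 lay above the limit and 48 above the stricter one (median level 11.58). Idh3g (13.00 ± 0.04), Mdh2 (12.84 ± 0.03), Idh3b (12.50 ± 0.10) and citrate synthase, Cs (12.43 ± 0.06), led the first list. The ATP synthase genes Atp5d (13.63 ± 0.01) and Atp5b (13.59 ± 0.02) and the cytochrome oxidase gene Cox6c (13.48 ± 0.09) led the other. The exceptions were isoforms of other tissues: Pdha2 of the testis and Pdk4 of starved muscle (4.52 ± 0.01 and 5.12 ± 0.03), and Cox8b and Cox6b2, were within background. Pdk1, a brake on pyruvate dehydrogenase, read 10.54, 10.79 and 9.85. Cycs, the cytochrome c gene, has probe sets on both sides of the limit and read 12.84 with the brightest and 10.17 with their mean. Cox7a1, an isoform of muscle, read 9.60, 10.44 and 8.76, the widest spread in its list. In the list of pyruvate entry and the citrate cycle only Pcx had a range of 1 or more, and it was lowest on array 3.

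Of 16 fatty acid oxidation genes, 13 lay above the limit and 12 above the stricter one, led by Hadh (11.99 ± 0.11) and Hadha (11.62 ± 0.15). Cpt1a, which brings fatty acids into the mitochondrion, read 10.44, 10.81 and 9.19 and was lowest on array 3. The regulators Ppara and Ppargc1a were within background. All 19 genes of fatty acid and sterol synthesis lay above the limit and 18 above the stricter one, at a median of 11.55. Scd2 and Scd1, the desaturases, read 13.19 ± 0.02 and 13.03 ± 0.25, Elovl6 12.09 ± 0.11, Fdft1 12.07 ± 0.13 and Fasn 11.91 ± 0.14. Acacb, an isoform of muscle and liver, was dimmest at 6.47 ± 0.11.

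Nucleotide and one-carbon genes were bright too. All 22 purine and pyrimidine genes exceeded both limits, led by Paics (13.14 ± 0.09) and the ribonucleotide reductase genes Rrm1 (12.76 ± 0.17) and Rrm2, at 12.57, 12.26 and 12.98. Of 12 serine, glycine and folate genes, 11 lay above the limit and 10 above the stricter one, with Shmt2 at 12.68 ± 0.12, Psat1 at 12.33 ± 0.11 and Phgdh, the entry to serine synthesis, at 10.61 ± 0.19. Gldc, of the glycine cleavage system, read 7.82, 6.40 and 8.83 and followed the array order of the Rag genes. Mthfd2, Mthfd1l, Mthfd1, Tyms, Shmt1, Psph and Mthfd2l had means from 8.66 to 12.01, and Amt was within background. The pentose phosphate pathway counted 7 of 9 above both limits, led by Pgd (11.42 ± 0.16) and Rpe (10.98 ± 0.06). Tkt, Rpia, Pgls, Taldo1 and G6pd2 had means from 8.86 to 10.46, with Tktl1 and Tktl2 within background.

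Amino acid supply genes had the highest median of the metabolic lists, 12.13. Slc3a2 (13.23 ± 0.16) and Slc7a5 (13.15 ± 0.20), the chains of the transporter for large neutral amino acids, were bright, as were Got2 (13.25 ± 0.05), the asparagine synthetase gene Asns (13.22 ± 0.20) and the glutamine transporter gene Slc38a2 (13.05 ± 0.10). Slc7a11, the cystine transporter, was the exception and within background at 4.70, 4.81 and 4.77. Of 8 genes of gluconeogenesis and liver metabolism, 3 lay above the limit (37.5%, against 61.6% of all genes) and 1 above the stricter one (42.3% of all genes). Pck2, the mitochondrial enzyme, read 11.35 ± 0.35, Pck1 6.44 ± 0.07, and Cps1, Tat, Arg1, G6pc and Alb were within background.

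Ribosomal, translation and replication lists held no member within background, and all but 1 of their members, Eef1a2, exceeded both limits. The 54 ribosomal protein genes had a median of 12.85 and the 28 translation genes one of 12.49. The dimmest ribosomal gene, Rplp2, read 7.93 ± 0.14, and Eef1a2, the elongation factor of muscle and neurons, 7.27 ± 0.05. All 31 replication and mitosis genes exceeded both limits, at a median of 11.61. Pcna, the sliding clamp, read 13.16, 12.89 and 13.47, and Mki67, a mark of cycling cells, 12.59, 12.53 and 12.65. Ccnb2 (13.02 ± 0.07), Aurkb (12.86 ± 0.12) and Ccna2 (12.86 ± 0.21) were as bright. Top2a (12.57 ± 0.13) has probe sets on both sides of the limit, and their mean was 8.74.

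**Figure D4:**
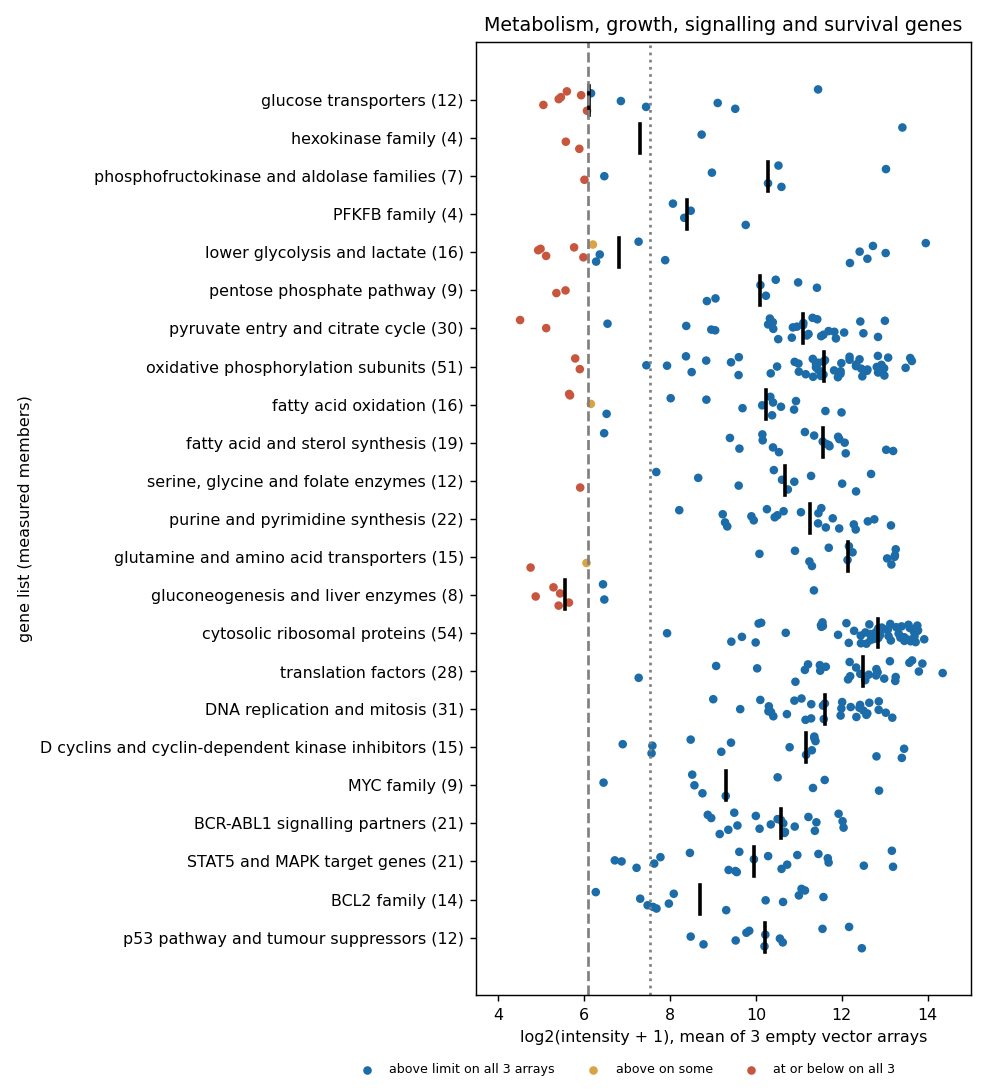
Level of each measured gene in 23 lists of metabolism, growth, signalling and survival, log2(intensity + 1), mean of the 3 empty vector arrays; points, bars and lines are as in the plot of B-lineage lists. The ribosomal list lies highest, at a median of 12.85, and the liver list lowest, at 5.55.

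All 15 genes of D cyclins, their kinases and inhibitors lay above the limit and 11 above the stricter one on all 3 arrays. Ccnd1, Cdkn2a and Cdkn2b exceeded the stricter limit on arrays 1 and 2 but not on array 3. Cdk4 (13.45 ± 0.09) and Ccnd3, the cyclin that pre-B cells depend on, were brightest; Ccnd3 read 13.40, 13.36 and 13.42. Ccnd2 read 12.96, 13.18 and 12.28 and Cdk6 11.85, 11.98 and 9.67, both lowest on array 3. Ccnd1 was low at 7.89, 8.13 and 6.71. The inhibitor genes differed from each other. Cdkn2a, the Ink4a and Arf locus, read 9.18, 9.62 and 6.65 and Cdkn2b, beside it, 7.76, 8.33 and 6.69, again lowest on array 3. Cdkn1b (11.36 ± 0.09, or 9.81 with the mean of its 2 probe sets), Cdkn2c (10.79 ± 0.42) and Cdkn2d (9.20 ± 0.03) were steadier, and Cdkn1c (6.90 ± 0.18) was near background. Cdk2, Rbl1, Rb1 and Rbl2 had means from 9.42 to 11.39. Myc read 12.98, 13.03 and 12.59, Mycn 11.25, 11.27 and 11.46, and Mycl, near background, 6.46 ± 0.19. The partners and antagonists Max, Mxd4, Mxd1, Mnt, Mxi1 and Mxd3 had means from 8.52 to 11.60.

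All 21 measured partners of BCR-ABL1 signalling exceeded both limits. Abl1 read 11.90, 11.86 and 12.01, and Bcr 9.96, 10.02 and 10.02; probes of these mouse genes do not tell the fusion transcript from the normal ones, and no probe set for the fusion is named. Jak1 (12.04 ± 0.09), Akt1 (12.02 ± 0.07) and Akt2 (11.41 ± 0.17) were bright, and Stat5b (10.09 ± 0.05) and Stat5a (9.57 ± 0.10) lay lower. Of 21 genes that STAT5 or MAP kinases are known to regulate, all lay above the limit and 17 above the stricter one. Pim1 read 13.22, 13.22 and 13.13, and Socs2 13.21, 13.11 and 13.17, both even across arrays; with the mean of its 2 probe sets Socs2 read 11.93. Dusp7 (12.51 ± 0.14), Dusp6 (11.69 ± 0.09) and Cish (11.46 ± 0.20) followed. Pim2 read 10.72, 11.40 and 9.67. Bcl6, a repressor gene among those that STAT5 is known to regulate, was dimmest at 6.72 ± 0.12, and Etv4, Spry4 and Spry2 lay between 6.88 and 7.64. What sets these levels was not tested.

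All 14 BCL2 family genes lay above the limit and 9 above the stricter one. Bcl2 read 11.93, 12.20 and 10.58, lowest on array 3. Of the other guardians, Mcl1 (11.14 ± 0.04) and Bcl2l1 (10.63 ± 0.13) were even. Bcl2l2 was dimmer and less even, at 7.64, 7.85 and 6.95, and was also lowest on array 3. Killers and sensitizers ranged from Bak1 (11.06 ± 0.30), Bcl2l11, the BIM gene, at 10.97, 10.90 and 11.14, Bid (10.23 ± 0.54) and Bmf (9.31 ± 0.15) through Hrk, Bbc3, Bad and Pmaip1, with means from 7.61 to 8.09, to Bik (6.28 ± 0.06). Bok had a mean of 7.31. In the p53 and tumour suppressor list all 12 measured genes lay above the limit and 11 above the stricter one, led by Ccng1 (12.46 ± 0.06) and Trp53inp1 (12.17 ± 0.32). Setd2, Mdm4, Mdm2, Etv6, Foxo3 and Nf1 had means from 8.78 to 10.62. Btg1 and Btg2, which restrain growth, read 11.42, 11.12 and 12.11 and 9.76, 9.40 and 10.38, highest on array 3. The glucocorticoid receptor gene Nr3c1 read 9.81, 9.75 and 9.78.

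Most genes were steady between the 3 arrays: the median SD of genes above the limit was 0.11 and their median range 0.22. Among the 13124 genes above it on at least 1 array, 719 had a range of 1 or more (5.48%), and array 3 was the farthest from the middle value in 666 of them. Without array 3 the count was 53. Array 1 was never the lowest, and it was the highest in 34 of the 719.

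The varying genes went both ways between arrays 2 and 3. A total of 251 genes were higher by 1 or more on array 3 and 460 on array 2. On the intensity scale, array 1 lay between the others in all 251 of the first and in 434 of the 460 of the second. Its median place was 26.0% of the way from array 2 to array 3 for the first set and 28.7% for the second. No array 2 value lay between arrays 1 and 3 among the 108 genes higher by 1 or more on array 3 than on array 1, and 34 did among the 314 higher on array 1. Whether array 1 holds RNA independent of that on arrays 2 and 3 is not in the labels and was not tested, so n = 3 and each SD count 3 arrays and not 3 known independent samples.

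The 10 genes with the largest range were of both kinds. Ifitm1, an interferon-inducible membrane gene, read 11.85, 12.23 and 6.83. Slc16a14, a transporter related to lactate carriers, read 10.50, 10.90 and 5.64, Stxbp6 10.88, 11.06 and 6.05, and the metallothionein gene Mt2 11.80, 12.55 and 7.88. Aldh1a7, an aldehyde dehydrogenase, and Aldoc shared this order, bright on arrays 1 and 2 and dim on array 3. Zdhhc2, a palmitoyl transferase, read 8.67, 5.27 and 10.61, and the scaffold gene Cask 9.39, 6.05 and 11.04. Eya1 and Trpc5os ran the same way, within background on array 2 and bright on array 3, with array 1 between them.

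**Figure D5:**
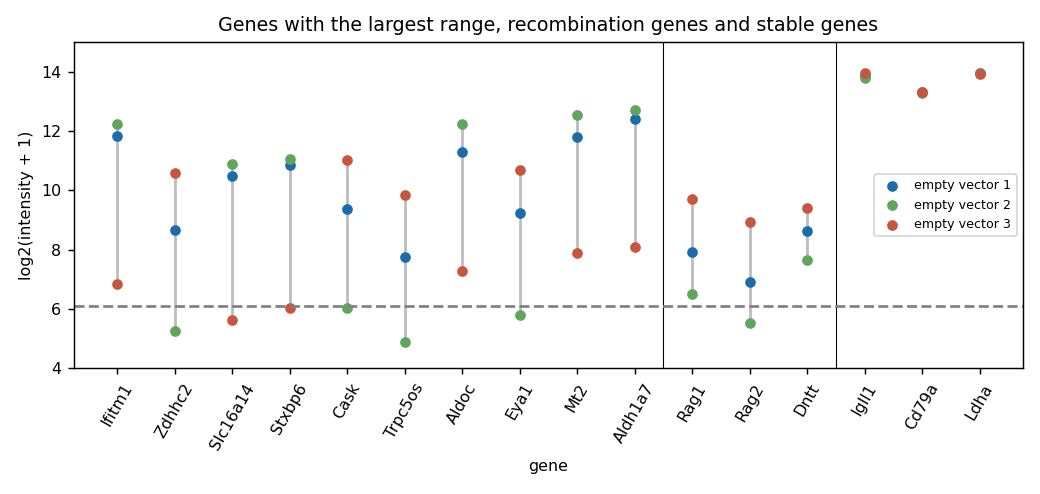
Level on each empty vector array, log2(intensity + 1), of the 10 genes with the largest range, of Rag1, Rag2 and Dntt, and of Igll1, Cd79a and Ldha; points are arrays, grey lines span the range and the dashed line is the background limit. Array 1 lies between arrays 2 and 3 in all of the first 13 genes, and the last 3 genes differ by at most 0.17.

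Several lists shared an order of the arrays. Of genes above the limit on all 3 arrays, 34.7% rose from array 2 through array 1 to array 3, and 27.0% rose from array 3 through array 1 to array 2. In the replication and mitosis list all 31 genes were in the first order, with a median difference of 0.49 between arrays 3 and 2, against 0.01 over all genes above the limit. The V(D)J list had 8 of 11 in that order, the purine and pyrimidine list 15 of 22 and the translation list 17 of 28. The ribosomal protein list did not share it, with 6 of 54 in the first order and 28 of 54 in the second, at a median difference of -0.04 between arrays 3 and 2. The second order was also held by 10 of 14 pro-B and pre-B surface genes, 10 of 14 mature B cell genes and 10 of 19 fatty acid and sterol synthesis genes. None of the 6 glucose transporter genes and none of the 6 phosphofructokinase and aldolase genes above the limit was higher on array 3 than on array 2. Over all genes above the limit, 6431 of 12281 were higher on array 3 than on array 2. Genes of a list share these 3 arrays, so the counts are no independent observations.

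Leaving out array 3 changed the number above the first limit in few lists. On arrays 1 and 2 it was 21 in place of 19 of 21 for receptor signalling, 15 in place of 14 of 21 for mature B cell genes and 11 in place of 10 of 16 for lower glycolysis, and it was the same in every other list. Counts above the stricter limit were not repeated without array 3. Aldoc, Cxcr5, Ccnd1, Cdkn2a, Cdkn2b, Bcl2l2 and Lat were among the genes that missed that limit on array 3 only.

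The DNA at start sites differed between bright and silent genes. Windows of genes above the limit held a median of 20 CpG pairs (quartiles 12 and 28), and those of genes within background 4 (quartiles 1 and 11). Of 8020 genes with 15 or more pairs, 84.4% lay above the limit, and of 7594 with fewer, 40.1%. Median levels of these sets were 9.17 and 5.85. The Igll1, Vpreb1, Vpreb3 and Cd79a windows printed above all belong to the second set. CCGGAAGT, an Ets-type motif, stood in 8.06% of windows of genes above the limit and 1.36% of those within background, and TATAAA, the TATA box, in 7.14% and 21.5%. CAGGTG stood in 18.1% and 20.8%, and TGGGAA, an Ikaros core, in 22.8% and 26.0%. All motifs were searched on both strands, and base composition differs between the sets. The sensory receptor genes that set the limit were not left out, and most of them lie within background by that choice. The differences between the sets therefore partly reflect the windows of these genes. No factor binding was measured.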

How the data were processed

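Total RNA of GFP-positive sorted cells was measured on 6 Affymetrix arrays, of which the 3 labelled pMIG were used. The authors deposited probe set intensities after RMA, a multi-array normalization, as named in the submitters' processing notes; its version and software: not given in the sources used here. They run from 11.3 to 22358, so a linear scale was read from the values. RMA equalises the distributions of arrays, which limits what can be seen of shifts common to most genes. Intensities carry no read depth, and the number of arrays limits the precision.

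Levels are log2(intensity + 1), computed in Python 3.11.15 with numpy 2.4.6 and pandas 2.3.3 and plotted with matplotlib 3.10.9. Of 35421 probe sets, 21789 had 1 symbol in the platform annotation, 1621 had several, and 12011 had no name here. RefSeq gene numbers gave current symbols for 21698, an accession for 3, and 88 were kept. For 1001 genes with several such probe sets the brightest was used; in 129 of them the probe sets fell on both sides of the background limit. Of 739 entries in 40 gene lists, 663 were measured, and the rest were not analysed here. Promoter windows came from RefSeq on GRCm38.p6, and no genome was used. The code was checked on simulated data.

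Named genes were drawn by rule from the 6 markers, the 25 brightest, members of lists of up to 12 genes and of the V(D)J, transcription factor, progenitor, D cyclin and BCL2 lists, the brightest 4 and dimmest 4 of other lists, and the 10 of largest range, leaving out gene models, small RNAs, receptor families and immunoglobulin segments. Others were chosen after their values were seen. The cells, lists and rules were chosen with earlier results of these data known. Alternatives were another choice of probe set, other limits, pseudocounts of 0 and 16, scaling to 1 median, and leaving out each array.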

Additional observations from a re-analysis of the deposited data

Results flagged for a closer look

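Signals above background also came from probe sets that the gene levels leave out. Of 1621 probe sets that pair with several symbols, 896 lay above the background limit on all 3 empty vector arrays (55.3%), among them 25 that list Gapdh, at levels from 13.51 to 14.17. Of 12011 probe sets unnamed here, 5873 lay above it (48.9%). Among the 100 brightest probe sets of the whole table, 57 pair with several symbols, 28 are unnamed and 15 pair with 1 symbol, so the order of the brightest genes covers a part of the brightest signals.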

How the results depend on the processing

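No paired analysis was possible because the results come from no test between groups. The count of genes above background was 12281 and stayed between 12251 and 12501 with the mean of each gene's probe sets, with the probe set brightest over 6 arrays, with either other pseudocount, after scaling and without any 1 array; it was 9482 with the 99th percentile as limit and 8432 with the keratin, defensin and taste receptor genes as background. With the 99th percentile the members above it numbered 2 for T cells, 0 for NK cells, 3 for myeloid cells, 0 for erythroid cells, 0 for megakaryocytes, 0 for mast cells, 1 for stromal cells and 1 for liver enzymes. With the keratin, defensin and taste receptor genes they numbered 3 for stem and progenitor genes, 8 for mature B cell genes, 0 for T cells, 0 for NK cells, 1 for myeloid cells, 0 for erythroid cells, 0 for megakaryocytes, 0 for mast cells, 0 for stromal cells, 3 for glucose transporters, 1 for liver enzymes, 9 for the BCL2 family and 1 for X and Y genes. The 99th percentile is a higher limit by construction, and the limit of the keratin, defensin and taste receptor genes was higher in these data. No other list moved by over 1.5 times in any alternative. The count of genes with a range of 1 or more, 719 in all, ran from 53 (without array 3) to 710 (without array 1) when an array was left out, and from 637 to 724 otherwise. Of the 100 brightest genes, 90 remained with the mean of probe sets and at least 93 without any 1 array. Of 675 listed or bright genes, the level moved by over 1 SD in 64 with the mean of probe sets, in 174 with a pseudocount of 16, in 45 after scaling and in 34 with a pseudocount of 0. Among these, Baiap2l1 moved to 10.48 and Hk1 to 11.45 with the mean of probe sets.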
